A study of Mus musculus with 6 samples.

Results

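The transcripts of the NF-κB core were compared between control and lamin A/C knockdown E0771 cells. The set was listed by gene name, but with earlier results of these data known. It held the subunit genes Nfkb1, Nfkb2, Rela and Relb and the inhibitor genes Nfkbia, Nfkbib and Nfkbie. The others were the feedback gene Tnfaip3, and Ikbkb and Ikbkg of the IκB kinase. Of these 10 genes, 9 were listed in the table of 10520 genes and 8 had enough counts to be tested, while Ikbkg was not listed. E0771 is a mouse mammary carcinoma line of the C57BL/6 strain, and all cells had received a lentiviral vector and had been selected with puromycin. The shControl cells carried the empty vector and the shLmna cells a vector with an shRNA against lamin A/C, each in 3 libraries of MARS-seq, a method that counts polyadenylated RNA molecules from their 3' ends by a unique molecular identifier (UMI). The knockdown rests on a single construct, which the library titles call shRNA4 and the other labels shLmna, and no cytokine treatment is named for either group.

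NF-κB is a family of dimeric transcription factors that drive inflammatory, survival and adhesion genes. In resting cells the dimers are held in the cytoplasm by IκB proteins until the IκB kinase marks these for destruction, and the freed dimers then switch on some of their own inhibitors, so that the response limits itself. The pathway has a canonical arm, centred on RelA and p50, and a slower non-canonical arm, centred on RelB and p52, which receptors such as CD40 and the TWEAK receptor engage. Because much of this control acts on proteins, the counts here describe the supply of the transcripts and not the activity of the factors.

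The libraries held between 1846208 and 3242051 UMIs, and the shControl and shLmna libraries lay at plate positions 13 to 15 and 16 to 18, so that position and group cannot be told apart. The labels do not say whether replicates were separate cultures, so the p-values measure the spread between these libraries, which may be technical. Lmna fell from a normalized UMI count of 2129 ± 153 to 929 ± 15.5 (SD, n = 3 each), a log2 fold change of -1.20 (SE 0.13, adjusted p = 3.5e-05, edgeR's quasi-likelihood test). Of the 8969 tested genes, 714 were higher (7.96%) and 518 lower (5.78%) in shLmna at an adjusted p below 0.05, 13.7% in all, and 5.71% also passed an absolute log2 fold change of 1. After a correction for the GC content of the 3' ends, 715 were higher and 818 lower. Of 9 epithelial markers 4 were listed, with a summed normalized count of 649 to 787 in shControl and 701.4 to 769.4 in shLmna that was mostly Krt8, and Cdh1 and Krt19 were not listed. None of the 3 tested epithelial markers was called, with 1 log2 fold change above and 2 below 0. Epcam was lower without overlap of the groups (log2 fold change -0.90, adjusted p = 0.0909, edgeR). Of 10 leukocyte markers 5 were listed, with sums of 105.2 to 125.0 and 84.1 to 92.1, and Ptprc, Itgam and Adgre1 were not. These markers did not move together, since Cd14 was called lower (log2 fold change -1.3, adjusted p = 0.00256, edgeR) and Lyz2 higher (1.28, adjusted p = 0.011, edgeR). Of 8 fibroblast markers 4 were listed, with sums of 45.3 to 45.9 and 66.2 to 75.2, and of 6 endothelial markers 1, at no more than 7.76. Of the 2 fibroblast markers tested, Pdgfrb was called higher (log2 fold change 0.74, adjusted p = 0.0457, edgeR) and Pdgfra was not called. The part of these markers in the results was not tested, and in bulk RNA fewer cells of a type cannot be told apart from less RNA per cell.

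None of the 8 tested genes of the NF-κB core was called in either direction, against 13.7% of all tested genes. None had an unadjusted p below 0.05, against 2543 of the 8969 tested genes, and DESeq2 and limma-voom also called 0 of the 8. The smallest adjusted p was 0.185, that of Nfkbib. The log2 fold changes lay between -0.32 and 0.31, with 5 above and 3 below 0 and a median of 0.08, against a median of 0.003 over all tested genes. Their median absolute change was 0.21, against 0.27 over all tested genes. All 8 of the 95% confidence intervals lay within a 2-fold change in both directions, and 3 of the 8, those of Nfkb1, Rela and Ikbkb, also lay within a 1.5-fold change. Every interval included 0, and changes inside an interval remain compatible with these data. The intervals of Nfkbib and Nfkbia went only just past 0, to 0.006 and to -0.02, but neither gene was called. With 1 library left out, the log2 fold change of Nfkbib ran from -0.41 to -0.20 and that of Nfkbia from 0.22 to 0.42. The 3 shControl and 3 shLmna values separated without overlap for 1 of the 8 genes, Relb, against 32.5% of all tested genes.

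Promoter windows of these genes were searched for the letters that NF-κB is known to bind. The κB consensus was searched as the pattern GGGRNNYYCC, where R is A or G, Y is C or T and N is any base. Both strands were searched, from 250 bases before to 50 bases after each RefSeq transcription start in GRCm38.p6. Windows were found for 7 of the 10 genes, and not for Nfkb1, Relb and Ikbkb. Of these 7 genes 4, Nfkb2, Nfkbia, Nfkbie and Tnfaip3, held at least 1 match. The windows of Rela, Nfkbib and Ikbkg held none, and bases outside the windows were not searched. Of all genes with a window, 9.55% held a match, and of the tested genes 12.2%. The following stretches of 30 bases are shown because these are the inhibitor, precursor and feedback genes that the factor itself is known to switch on. Capitals mark the match, and overlapping matches are joined. Nfkb2 held 4 matches in 3 windows and Tnfaip3 2 in 2 windows, and not all of these are shown. The stretches shown for Nfkb2 and Tnfaip3 lie inside the gene spans given below, before RefSeq starts within the gene.
Nfkb2 (chr19:46304689-46304718, plus strand): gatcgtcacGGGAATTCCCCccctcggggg
Nfkb2 (chr19:46304707-46304736, plus strand): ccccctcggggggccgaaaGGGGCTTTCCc
Nfkbia (chr12:55492657-55492686, minus strand): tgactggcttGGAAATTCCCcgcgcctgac
Nfkbie (chr17:45555584-45555613, plus strand): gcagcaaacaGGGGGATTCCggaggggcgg
Tnfaip3 (chr10:19015411-19015440, minus strand): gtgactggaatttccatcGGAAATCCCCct
The last 2 of these genes were the least abundant of the 9, and Nfkbia was among the most abundant. A match is a run of letters and was not tested for binding here.

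Rela encodes p65, the transactivating subunit of the canonical dimer, and lies on chromosome 19 of GRCm38 (5637483 to 5648130). Normalized UMI counts of Rela were 1108, 877 and 748 in the control libraries, in the order of their replicate numbers, and 874, 775 and 795 in the knockdown libraries. The shLmna values all lay inside the range of the control values. Its log2 fold change was -0.16 (SE 0.16, 95% interval -0.49 to 0.17, adjusted p = 0.536, edgeR). Rela was the most abundant gene of the set, above 94.6% of the tested genes in normalized UMI count, and held 66.9% ± 3.3 of the UMIs of the 4 subunit genes in shControl and 65.8% ± 1.16 in shLmna (SD, n = 3 each). UMIs count molecules at their 3' end, so this share compares transcripts without regard to length.

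Nfkb1 encodes the p105 precursor of p50, the DNA-binding partner of p65 (chromosome 3, 135584655 to 135691547). It had 99.4, 168.5 and 113.8 normalized UMIs in shControl and 118.8, 144.1 and 141.3 in shLmna. Again the knockdown values fell inside the control range, because shControl replicates 1 and 2 were the lowest and highest of all 6. The log2 fold change was 0.07 (SE 0.20, interval -0.36 to 0.50), and its sign depended on the libraries used: it was -0.10 without shControl replicate 1 and 0.34 without shControl replicate 2.

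Nfkb2 encodes p100, which is both the precursor of p52 and an inhibitor of RelB (chromosome 19, 46304320 to 46312385). Its normalized counts were 316.5, 278.3 and 221.2 in shControl and 244.9, 215.7 and 228.2 in shLmna, and the groups overlapped. The log2 fold change was -0.25 (SE 0.16, interval -0.59 to 0.09, adjusted p = 0.336, edgeR). The counted end of Nfkb2 overlaps an exon of Psd on the opposite strand, a gene with 12 to 41 UMIs per library, and whether the counting used strand is not stated.

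Relb encodes the partner of p52 in the non-canonical arm (chromosome 7, 19606217 to 19629438). It had 47.8, 46.5 and 45.3 normalized UMIs in shControl and 64.0, 50.1 and 59.6 in shLmna. Every shLmna library lay above every shControl library, although the gap between the nearest libraries was small. The mean was 46.5 ± 1.27 in shControl and 57.9 ± 7.08 in shLmna (SD, n = 3 each), a log2 fold change of 0.31 (SE 0.21, interval -0.13 to 0.75) that did not pass the test (adjusted p = 0.354, edgeR). At 35 to 70 UMIs per library, the counting error of a library is larger than the spread of the 3 control values.

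**Figure D1:**
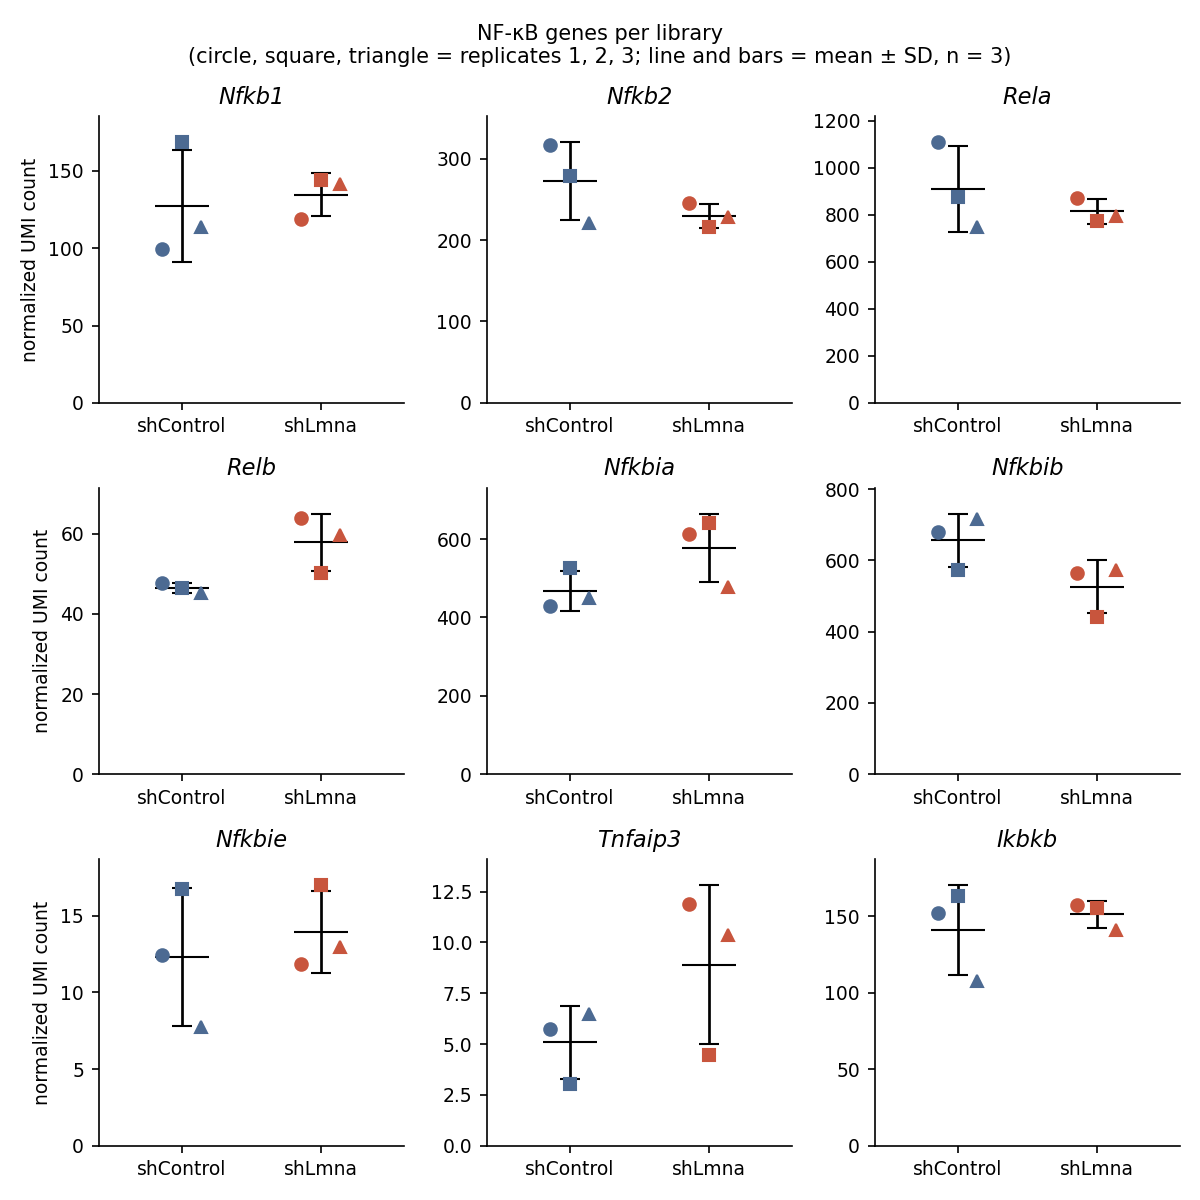
Normalized UMI count (y axis, from 0) of the 9 listed NF-κB genes in each of the 3 shControl and 3 shLmna libraries (x axis); points are libraries, lines and bars the mean ± SD. The groups overlap in every panel except that of Relb, where shControl lies between 45.3 and 47.8 and shLmna between 50.1 and 64.0.

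The estimates of the inhibitors differed from each other in sign, but each interval included 0. Nfkbia encodes IκBα, the inhibitor that NF-κB itself induces and that closes the rapid feedback loop (chromosome 12, 55489410 to 55492647). Its normalized counts were 428.4, 525.3 and 450.2 in shControl and 613.1, 640.9 and 477.1 in shLmna. In shLmna, replicates 1 and 2 were above all controls and replicate 3 was not. The log2 fold change was 0.30 (SE 0.15, interval -0.02 to 0.63, adjusted p = 0.209, edgeR), and leaving out 1 library at a time gave 0.22 to 0.42.

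Nfkbib encodes IκBβ, which binds the same dimers but is not part of the rapid feedback (chromosome 7, 28758251 to 28767512). It had 678.9, 572.5 and 716.6 normalized UMIs in shControl and 564.7, 442.2 and 573.1 in shLmna. The groups met at a single point, where shLmna replicate 3 and shControl replicate 2 were nearly equal. The log2 fold change was -0.32 (SE 0.15, interval -0.64 to 0.006, adjusted p = 0.185, edgeR), the largest in absolute size among the 8 genes. The counted end of Nfkbib overlaps an exon of Ccer2 on the opposite strand, which is not listed in the table.

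Within a library the ratio of 2 transcripts does not depend on scaling. The ratio of Nfkbia to Nfkbib UMIs was 0.631, 0.917 and 0.628 in shControl and 1.09, 1.45 and 0.833 in shLmna, with means of 0.726 ± 0.166 and 1.12 ± 0.310 (SD, n = 3 each). Nfkbib was thus the more abundant in every control library and Nfkbia in 2 of 3 knockdown libraries, but shLmna replicate 3 lay inside the control range. The pair was singled out after its values were seen, and no test is given. The sum of the 3 IκB transcripts hardly moved, with 1136 ± 33.2 normalized UMIs in shControl and 1118 ± 65.1 in shLmna (SD, n = 3 each). Relative to the 4 subunits this sum was 0.712, 0.814 and 1.04 in the shControl libraries and 0.914, 0.928 and 0.869 in the shLmna libraries, and the latter lay inside the control range. All 9 genes together made up 10.6 ± 0.671 of every 10000 UMIs in shControl and 10.5 ± 0.284 in shLmna (SD, n = 3 each).

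**Figure D2:**
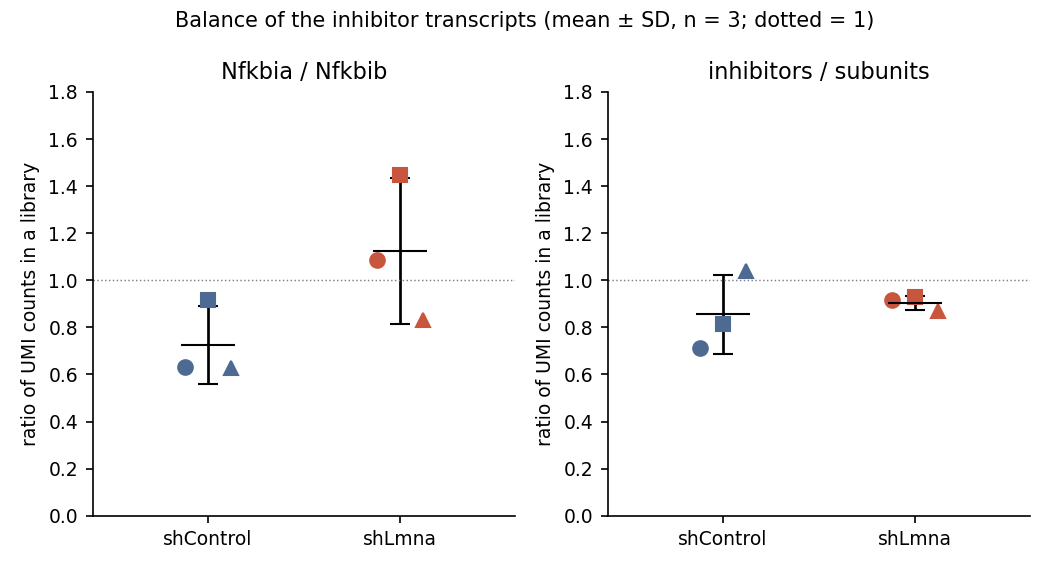
Ratio of UMI counts within each library (y axis, from 0) for Nfkbia over Nfkbib (left) and for the 3 IκB genes over the 4 subunit genes (right), with 3 shControl and 3 shLmna libraries and their mean ± SD. The left ratio averages 0.726 and 1.12 with overlapping libraries, and on the right the shLmna points lie between 0.869 and 0.928, inside the control range of 0.712 to 1.04.

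Nfkbie and Tnfaip3 were close to the limit of detection. Nfkbie encodes IκBε, a slower feedback inhibitor (chromosome 17, 45555703 to 45563169), and had 13, 22 and 6 UMIs in shControl and 13, 19 and 10 in shLmna. The groups overlapped throughout, and with a log2 fold change of 0.13 (SE 0.37) the interval, -0.66 to 0.91, was the widest of the 8. Tnfaip3 encodes A20, the ubiquitin-editing enzyme that switches the pathway off upstream of the kinase (chromosome 10, 19000910 to 19015657). It had 6, 4 and 5 UMIs in shControl and 13, 5 and 8 in shLmna, too few for the count filter, and the groups overlapped because shLmna replicate 2 lay inside the control range. With no filter on low counts its log2 fold change was 0.83 (SE 0.56, adjusted p = 0.373, edgeR). At this depth a change of either gene was not detectable unless large.

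Ikbkb encodes IKKβ, the catalytic subunit that phosphorylates IκB in the canonical arm (chromosome 8, 22659212 to 22706589). Its normalized counts were 152.0, 163.1 and 107.4 in shControl and 157.2, 155.8 and 141.3 in shLmna. The knockdown values again lay inside the control range, which shControl replicate 3 widened, and the log2 fold change was 0.09 (SE 0.18, interval -0.29 to 0.47, adjusted p = 0.782, edgeR). It was 0.21 without shControl replicate 2 and -0.06 without shControl replicate 3.

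The spread between replicates limited what could be seen for several of the genes. In shControl the coefficient of variation was 28.6% for Nfkb1, 21% for Ikbkb, 20.1% for Rela and 17.6% for Nfkb2, and in shLmna it was 10.3%, 5.79%, 6.39% and 6.37% for the same genes. For Nfkbia and Nfkbib it was between 10.9% and 15.2% in both groups. Whether the groups differ in spread was not tested.

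**Figure D3:**
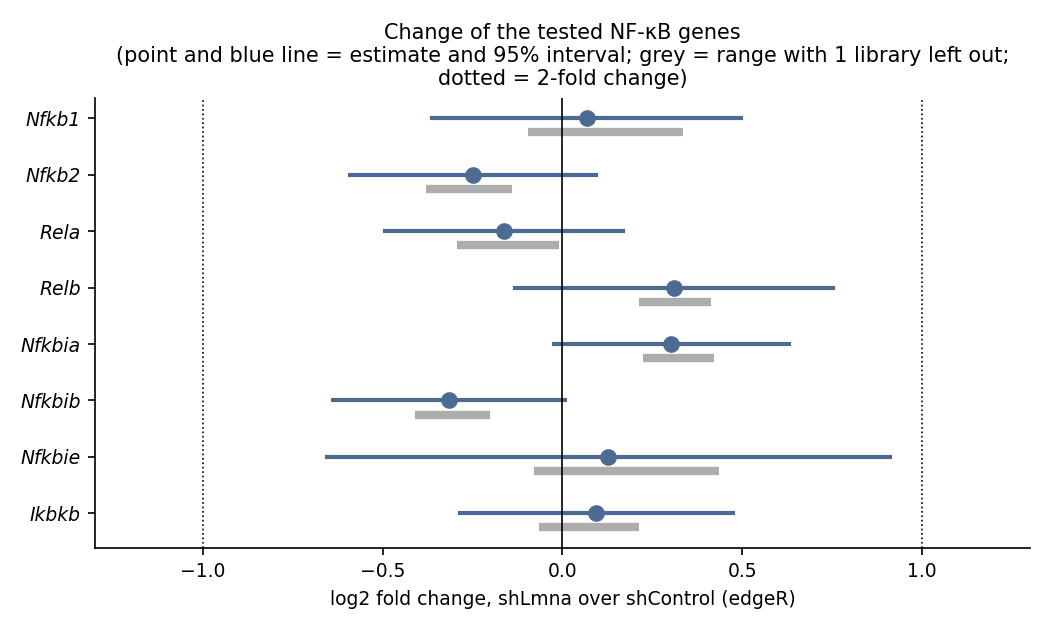
Log2 fold change of shLmna over shControl (x axis) for the 8 tested NF-κB genes (y axis), with the 95% interval from edgeR in blue and the range with 1 library left out in grey. Each interval includes 0 and ends inside the dotted lines of a 2-fold change, and the estimates lie between -0.32 for Nfkbib and 0.31 for Relb.

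The genes around this core were then read from lists of 93 further pathway genes and 56 textbook target genes. These lists were also drawn up with earlier results of these data known, so their counts are a description only. Of the 62 pathway genes tested, 8 were higher and 3 lower in shLmna, against 7.96% and 5.78% of all tested genes, and their median log2 fold change was 0.15. Of the 30 target genes tested, 4 were higher and 5 lower, with a median of 0.02. No list is given a test of its own. Il1rap and Tab3 among the higher pathway genes, and Traf1 among the lower, passed the count filter only through the group where they were high. All 3 lower pathway genes kept their call in each of the 6 fits that left out a library, and 1 of the 8 higher ones, Tnfsf12, did, although it lost its call with DESeq2 and the replicate block (adjusted p = 0.0738). Bcl3, Traf6, Tab3, Sigirr and Il1r1 also lost theirs in that fit (adjusted p 0.104 to 0.188). With DESeq2 alone Sigirr and Tab3 lost theirs (adjusted p = 0.0512 and 0.0847), and with limma-voom Bcl3 did (adjusted p = 0.0522).

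Among 14 other core genes and nuclear IκB proteins, 11 were tested and only Bcl3 passed, a nuclear IκB protein that binds p50 and p52 dimers. It had 120.5, 90.7 and 71.1 normalized UMIs in shControl and 161.7, 113.7 and 216.5 in shLmna, with overlap, and a log2 fold change of 0.78 (SE 0.24, adjusted p = 0.0418, edgeR). The adjusted p was 0.174 without shControl replicate 2, 0.0706 without shControl replicate 3, 0.114 without shLmna replicate 1 and 0.221 without shLmna replicate 3. The counted end of Bcl3 overlaps an exon of Gm16175 on the opposite strand, which is not listed in the table.

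Among 27 tested adaptors and kinases, Traf1 fell, and Traf6 and Tab3 were called higher. Traf1, an adaptor of TNF receptors and itself a known NF-κB target, went from 40.3 ± 6.71 to 8.71 ± 2.56 normalized UMIs (SD, n = 3 each), a log2 fold change of -2.24 (SE 0.32, adjusted p = 0.000339, edgeR). The 3 shLmna libraries had 8, 8 and 9 UMIs, against 50, 50 and 27 in shControl, and Traf1 passed the count filter only through the latter. Traf6, the ubiquitin ligase of Toll-like and interleukin-1 receptor signalling, had a log2 fold change of 1.20 (SE 0.32, adjusted p = 0.0211, edgeR), and its adjusted p was 0.0874 without shControl replicate 1, 0.130 without shControl replicate 2, 0.0788 without shLmna replicate 1 and 0.0901 without shLmna replicate 3. Tab3, which couples TRAF6 to the kinase TAK1, had 2 to 8 UMIs in shControl and 13 to 17 in shLmna. It passed the count filter only through the shLmna libraries, where it was high. Its adjusted p was 0.0450, 0.0673 with no filter on low counts and 0.126 after the GC correction (edgeR). The adjusted p was between 0.0704 and 0.235 when shControl replicate 1 or 2 or any shLmna library was left out (edgeR).

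Of 16 brakes of the pathway outside the core 14 were tested, and 2 were called higher and none lower by edgeR's test. An unadjusted p below 0.05 was found for 6 of them, 3 with a positive and 3 with a negative log2 fold change, against 2543 of the 8969 tested genes. Pdlim2, which promotes the destruction of nuclear p65, had a log2 fold change of 0.80 (SE 0.17, adjusted p = 0.00664, and 0.0652 without shControl replicate 2, edgeR). Sigirr, a damping receptor of the interleukin-1 family, had a log2 fold change of 0.61 (SE 0.17, adjusted p = 0.0274, edgeR). Its adjusted p was 0.0527 without shControl replicate 1, 0.132 without shControl replicate 2, 0.0950 without shLmna replicate 1 and 0.0926 without shLmna replicate 3.

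Of 9 tested receptors, Cd40 and Tnfrsf12a fell and Il1r1 and Il1rap were called higher. Cd40, a receptor of the TNF family that engages both arms, had 74, 70 and 35 UMIs in shControl and 11, 12 and 8 in shLmna, and its log2 fold change of -2.44 (SE 0.29, adjusted p = 6.5e-05, edgeR) was a 5.42-fold decrease. Tnfrsf12a, the receptor of the cytokine TWEAK, fell from 979 ± 68.8 to 599 ± 41.0 (SD, n = 3 each), a log2 fold change of -0.71 (adjusted p = 0.00313, edgeR). Its ligand gene Tnfsf12, the only one tested of 12 ligand genes, went the other way, with a log2 fold change of 1.01 (SE 0.21, adjusted p = 0.0055, edgeR), but its counted end overlaps an exon of the readthrough gene Tnfsfm13 on the same strand and its counts are uncertain. Il1r1, the interleukin-1 receptor, had a log2 fold change of 0.99 (SE 0.23, adjusted p = 0.0118, 0.0864 without shControl replicate 2 and 0.0553 without shLmna replicate 2, edgeR). Il1rap, its accessory chain, had 3, 0 and 1 UMIs in shControl and 11, 12 and 13 in shLmna. That was at least 4.17-fold higher against a floor of 3 UMIs in each shControl library. Il1rap passed the count filter only through the shLmna libraries, where it was high. Its adjusted p was 0.00599, 0.0127 with no filter on low counts and 0.0553 without shControl replicate 2 (edgeR). The receptor gene Ltbr, abundant at 760 ± 39.1 and 958 ± 117 normalized UMIs (SD, n = 3 each), did not pass (adjusted p = 0.125, edgeR).

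**Figure D4:**
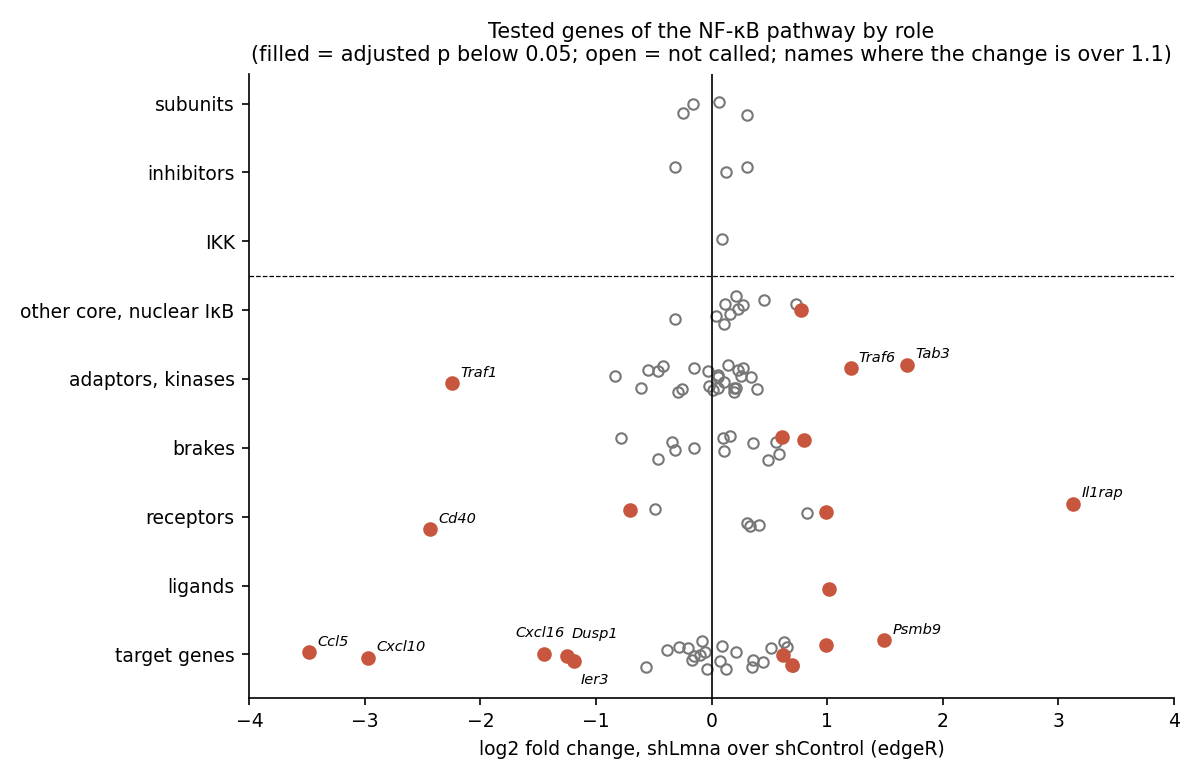
Log2 fold change of shLmna over shControl (x axis) for each tested gene, in rows by role in the NF-κB pathway; filled points have an adjusted p below 0.05 and genes past 1.1 are named. The core genes above the dashed line lie between -0.32 and 0.31 with no filled point, while the target genes reach -3.48 for Ccl5; the point of Il1rap, near 0 UMIs in shControl, depends on the prior count of the fit.

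The called target genes did not share a direction. Ccl5, a chemokine for T cells, was 11.2-fold lower in shLmna, from 432 ± 56.6 to 39.1 ± 6.92 normalized UMIs, and Cxcl10, a chemokine that interferon also induces, was 7.84-fold lower, from 373 ± 68.5 to 46.1 ± 16.7 (SD, n = 3 each). Cxcl16, a chemokine made as a membrane protein, had a log2 fold change of -1.45 (SE 0.31), Ier3, an immediate early survival gene, of -1.19 (SE 0.14), and Dusp1, a phosphatase that turns off MAP kinases, of -1.25 (SE 0.19). In the other direction stood Ccl2, a monocyte chemokine, with 0.99 (SE 0.17), Csf1, the macrophage growth factor, with 0.70 (SE 0.14), Psmb9, an immunoproteasome subunit, with 1.49 (SE 0.26), and Tap1, the peptide transporter, with 0.62 (SE 0.17). Tap1, named after its values were seen, lost its call when any of 5 libraries was left out, with an adjusted p of 0.0509 to 0.131. With DESeq2 and the replicate block Tap1 lost it too (adjusted p = 0.165). The other 8 kept theirs in each of the 6 fits that left out a library, and of these Cxcl16 lost its call with DESeq2 and the replicate block (adjusted p = 0.0708). The counted end of Cxcl10 overlaps an exon of Art3 on the opposite strand, which is not listed in the table. Like Nfkbia, which encodes IκBα and was not called, the lower genes Cxcl10 and Ier3 hold a κB match before the transcription start, and these 3 stretches are shown for comparison with those of the inhibitors above.
Cxcl10 (chr5:92349029-92349058, minus strand): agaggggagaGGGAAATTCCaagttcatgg
Cxcl10 (chr5:92348973-92349002, minus strand): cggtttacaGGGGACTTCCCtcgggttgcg
Ier3 (chr17:35821611-35821640, plus strand): tgcgaagggcGGAGTTCCCCccggcccggc
Csf1, Il1r1 and Bcl3, which were higher, also hold a match. Among the named genes with a window, Tap1 left out, a match was found in 2 of 5 lower and 3 of 7 higher ones. Over the tested genes with a window the share was 12.2%, but the named genes come from lists of known NF-κB genes. No window was found for Ccl5 and Cd40.

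**Figure D5:**
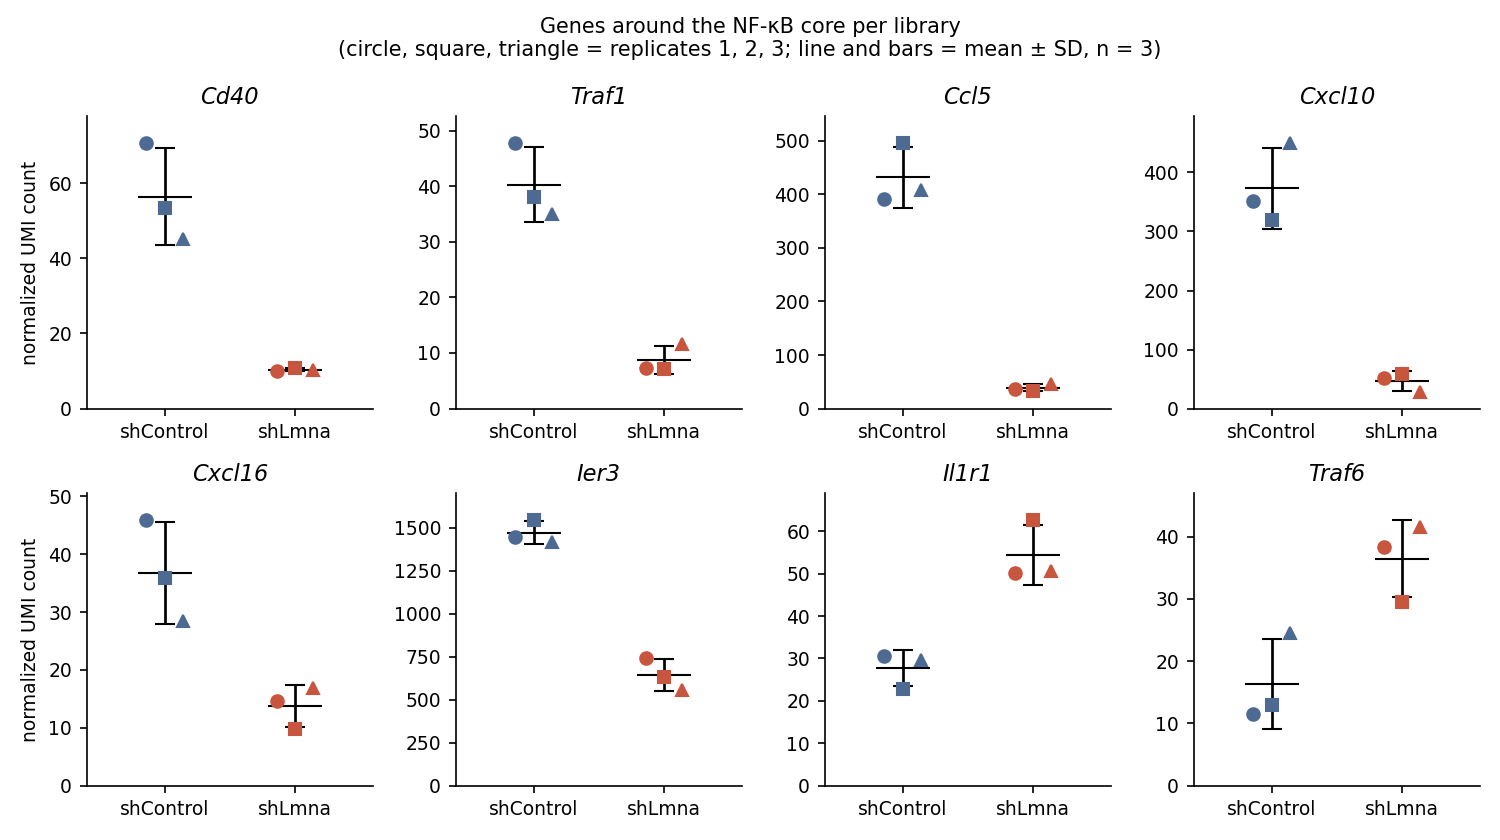
Normalized UMI count (y axis, from 0) per library for 8 genes around the NF-κB core that passed the test, with the mean ± SD of 3 shControl and 3 shLmna libraries. The groups do not overlap in any panel, with Cd40, Traf1, Ccl5, Cxcl10, Cxcl16 and Ier3 lower and Il1r1 and Traf6 higher in shLmna. The 8 were picked from genes that had passed, so this lack of overlap is no further evidence. It was also found for 32.5% of all tested genes. Of all called pathway and target genes, 12 were higher and 8 lower in shLmna.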

How the data were processed

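RNA of E0771 cells was sequenced by MARS-seq in 3 shControl and 3 shLmna libraries. The authors trimmed reads with Cutadapt, mapped them to mm10 with STAR 2.4.2a and deposited raw UMI counts, taken with HTSeq in a window around the 3' end of RefSeq genes (1000 bases inside and 100 beyond). The table lists 10520 genes; no listed gene stayed below 6 UMIs in every library. How the table was filtered, and whether counting used strand, is not given in the sources used here. Deposited ComBat values and the authors' DESeq2 comparison (mean count, fold change and p-values) were not used.

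The test was that of edgeR 4.0.16 in R 4.3.3 (filterByExpr with a minimum count of 10, TMM, quasi-likelihood test without a replicate block) and Benjamini-Hochberg adjustment over all tested genes. DESeq2 1.42.0, limma-voom (limma 3.58.1), RLE and upper-quartile scaling, no filter, the replicate block, a GC correction (loess, span 0.3, degree 2, on the GC content of the last 1000 bases in GENCODE M21 transcripts, matched for 10468 genes) and each library left out were alternatives. Once the data had been seen, DESeq2 with the replicate block was added. Each SE given with edgeR's test was derived from its log2 fold change and F statistic, which the test reports without an SE. The 95% intervals were built from these SEs with a t distribution and cover the spread between these libraries only. No 2 replicates were alike within sampling noise (chi-square over its degrees of freedom 5.11 to 8.28). A floor of 3 UMIs per library was used for genes near 0. An exact permutation of 3 against 3 libraries cannot give a p below 0.1, so none was run.

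The genes of the core and all lists were chosen with earlier results of these data known. Outside the core, the genes named are those of each list with an adjusted p below 0.05, at most the 8 with the smallest p, and of genes that did not pass only the 3 most abundant of a list. Tap1 was named after its values were seen. Coordinates are those of GENCODE M21 (GRCm38), and promoter sequences come from RefSeq (GRCm38.p6), with windows for 7 of the 10 genes.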

Additional observations from a re-analysis of the deposited data

How the results depend on the processing

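Under all 15 alternatives, including the replicate block, none of the tested NF-κB core genes was called. Those with an unadjusted p below 0.05 numbered 2 with the replicate block, 2 with the GC correction, 2 with both and 0 to 2 with 1 library left out, against 0 in the test as reported. The cause was not tested. With 1 library left out, the log2 fold change of Nfkb1 ran from -0.0968 to 0.337, negative without shControl replicate 1 or 3, that of Nfkbie from -0.0801 to 0.435, negative without shControl replicate 3 or shLmna replicate 2, and that of Ikbkb from -0.0648 to 0.214, negative without shControl replicate 3. Lmna stayed called, from -1.26 to -1.15. With a library left out, all called genes numbered 540 (without shControl replicate 2) to 1580, against 1232, and the called pathway genes 4 (without shControl replicate 2) to 13, against 11. With DESeq2 and the replicate block they numbered 660 and 5, and the called target genes 7, against 9, which were 8 to 12 with a library left out. The labels number replicates 1 to 3 in both groups, but deviations of same-numbered libraries correlated at 0.320, -0.105 and 0.0172, so the numbers were not taken as pairs. With the replicate block 1350 genes, 11 pathway genes and 10 target genes were called. Nfkbie and Tnfaip3 are limited by depth.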
